A study of Mus musculus with 8 samples.

Results

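The transcripts of cytosolic ribosomal proteins were examined in mouse haematopoietic stem cells (HSCs), from which every kind of blood cell descends. The genes were taken by symbol alone. Every probe set with exactly 1 gene symbol was a member if that symbol was Rpl or Rps with a number and at most 1 letter, Rplp0, Rplp1, Rplp2 or Rpsa. This gave 397 of the 23586 probe sets with exactly 1 symbol, and 80 of the 21104 genes, 32 of the small subunit and 48 of the large subunit. Symbols of pseudogenes ending in -ps, on 10 probe sets, were left out, and so were 6 probe sets that list a ribosomal protein gene beside other symbols. Rpl30 is found only in such a mixed entry and is therefore not a member. The KO group holds 4 pools from Vav-Cre;BMPR-II(fl/fl) mice, and the WT group holds 4 pools from littermates without Vav-Cre, all on the C57Bl/6 background and without treatment. The series text speaks of 4 mice in each group, while the labels of the pools name 3 mice for each. Each pool joined the marrow of 3 mice of 1 group, sorted by the gate LSK CD9hi CD48- CD150+ (LSK cells lack lineage markers and carry Sca-1 and Kit). Each pool was hybridised to 1 Affymetrix array. Vav-Cre acts throughout the blood lineage, and it deletes exons 4 and 5 of Bmpr2, whose product is a receptor for bone morphogenetic proteins. All mice of the KO pools carried Cre and 2 floxed alleles. WT pools 1 to 4 held 1, 0, 1 and 2 mice with both alleles floxed, 2, 3, 1 and 1 with a single floxed allele, and 1 mouse of WT pool 3 with none. No source used here gives the ages of the mice, and an effect of Cre cannot be told apart from one of the deletion.

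Ribosomal proteins, with ribosomal RNA, form the small subunit, which reads the messenger RNA, and the large subunit, which joins the amino acids. Their genes are expressed together in all cells, and cells need them in near-equal amounts, since a shortage of a single one stalls assembly of its subunit. Their messenger RNAs carry a terminal oligopyrimidine (TOP) tract, a C at the first base followed by further pyrimidines, through which the mTORC1 kinase and the RNA-binding protein LARP1 set their translation. HSCs are known for a low rate of protein synthesis, and loss of single ribosomal proteins causes Diamond-Blackfan anaemia, a failure of red cell production in people.

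RefSeq promoter windows on GRCm38.p6 were at hand for 60 of the 80 genes, with 72 annotated starts, and they were searched for the first bases of a TOP tract, which the rule did not use. In 13 of the 60 genes (21.7%) an annotated start was a C followed by at least 4 pyrimidines, against 3.01% of all 27025 genes in the table. Windows of 30 bases around the start are shown 5′ to 3′ for 10 of these genes and for 4 duplicated members that lack the run there. The first 15 bases lie before the start, and capitals mark the C at the start and the pyrimidines that follow it without a break.
Rps6 (chr4:86857353-86857382, minus strand): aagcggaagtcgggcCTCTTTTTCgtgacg
Rps10 (chr17:27635230-27635259, minus strand): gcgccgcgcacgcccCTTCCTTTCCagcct
Rps18 (chr17:33955651-33955680, minus strand): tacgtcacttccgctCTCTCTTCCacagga
Rps27 (chr3:90213634-90213663, minus strand): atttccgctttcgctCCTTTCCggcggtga
Rpl14 (chr9:120571502-120571531, plus strand): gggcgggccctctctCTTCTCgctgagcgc
Rpl15 (chr14:18270972-18271001, minus strand): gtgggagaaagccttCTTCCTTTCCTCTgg
Rpl28 (chr7:4792950-4792979, plus strand): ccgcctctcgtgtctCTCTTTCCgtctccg
Rpl35 (chr2:39005117-39005146, minus strand): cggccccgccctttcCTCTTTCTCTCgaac
Rpl38 (chr11:114668565-114668594, plus strand): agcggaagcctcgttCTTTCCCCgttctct
Rplp2 (chr7:141447636-141447665, plus strand): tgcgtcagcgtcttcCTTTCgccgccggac
Rps27l (chr9:66946071-66946100, plus strand): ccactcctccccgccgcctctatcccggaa
Rpl3l (chr17:24727811-24727840, plus strand): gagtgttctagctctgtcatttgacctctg
Rpl10l (chr12:66284387-66284416, minus strand): tttggcctccattttgcggctggcggtggg
Rpl39l (chr16:10170213-10170242, plus strand): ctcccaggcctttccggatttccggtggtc
Annotated starts can lie some bases away from the true first base. A C followed by 6 pyrimidines began within 10 bases of a start in 29 of the 60 genes (48.3%), against 14.1% of all genes. The core CGGAAG of the ETS family of transcription factors, searched on both strands of the whole window, from 250 bases before to 50 after the start, was in 41 of the 60 windows (68.3%), against 18.8% of all genes, and it can be read in the windows of Rps6 and Rpl38 above. The E-box CACGTG was found in 10% of the 60 genes, against 8.09% of all genes, and TATAAA, on either strand, in 10%, against 15.7%. These matches are letters in a window and not measured sites. Of the 13 genes with the run at the start, 4 had higher and 9 lower means in KO, with a median difference of -0.042 on the log2 scale, and of the other 47 with a window, 15 had higher and 32 lower means, with a median of -0.022.

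The arrays had median levels between 5.58 and 5.63 on the log2 scale in KO pools, against 5.63 to 5.69 in WT pools. WT pool 2 stood farthest from the others. Its median correlation with the other arrays, across probe sets, was 0.984, and those of the remaining arrays were 0.985 to 0.988. The deleted gene, Bmpr2, was at 7.22, 6.64, 6.70 and 6.91 in KO pools 1 to 4, against 8.09, 7.63, 7.05 and 7.83 in WT pools 1 to 4, an overlap of 1 KO pool with 1 WT pool. The difference was -0.79 (SE 0.21), with a limma p of 0.0029 unadjusted and 0.967 adjusted, and an exact permutation p of 0.0571. A probe set can read exons outside the deleted part, so this checks the labels only in part.

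The ribosomal protein transcripts gave some of the strongest signals of these arrays. Each gene was represented by its brightest probe set on average. This had a mean level of at least 12 for 52 of the 80 genes and of at least 11 for 71 of them, while the highest single value of any probe set was 13.3. In all, 80 of the 21104 genes reached 12, and 52 of them were ribosomal protein genes. Levels depend on the probes as well as on the transcript, so they rank no gene above another. Spread was read mostly from these strong signals. The median standard deviation (SD) within groups was 0.0793 for the 80 genes, against 0.192 for all genes tested, and 75 of the 80 lay under the median of all genes. The median level was 12.25 for the 80 genes, against 5.80 for all genes, so the spreads were measured at different signals. Signals near the top of an array's scale can be compressed, whose part in these values was not tested. Among members with dimmer probe sets, Rpl39l had an SD of 0.45 in KO and 0.17 in WT, Rpl34 one of 0.27 and 0.075 in KO and WT, and Rplp2 one of 0.11 and 0.29 in KO and WT.

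No ribosomal protein gene passed the test between KO and WT, and the differences of their brightest probe sets were at most 0.15 in size on the log2 scale. At a limma adjusted p under 0.05, 0 of the 80 were called, as were 0% of the 21104 genes, and 0 of the 80 had an unadjusted p under 0.05, against 4.55% of all genes. The unadjusted p in the authors' deposited table was under 0.05 for 3 of the 80, against 4.33% of all genes, and with an intensity trend in limma's prior this held for 0 of the 80, against 4.56%. With the pool number as a block 0 of the 80 were called, against 0.00948% of all genes. The members' limma adjusted p lay between 0.967 and 1.0 and their lowest unadjusted p was 0.23. Differences, KO minus WT on the log2 scale, ran from -0.15 to 0.12 and were under 0.1 in size for 75 of the 80, against 50.7% of all genes, most of which were read at far lower levels. Dimmer probe sets of some members gave larger differences, such as -0.26 for Rpl5 and 0.24 for Rpsa. The 95% interval of the difference, not adjusted for the number of genes, lay wholly inside 1.5-fold in either direction for all 80 and inside 1.2-fold for 36 of them. For the bulk of each pool, a change in the number of cells and a change in RNA per cell cannot be told apart.

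**Figure D1:**
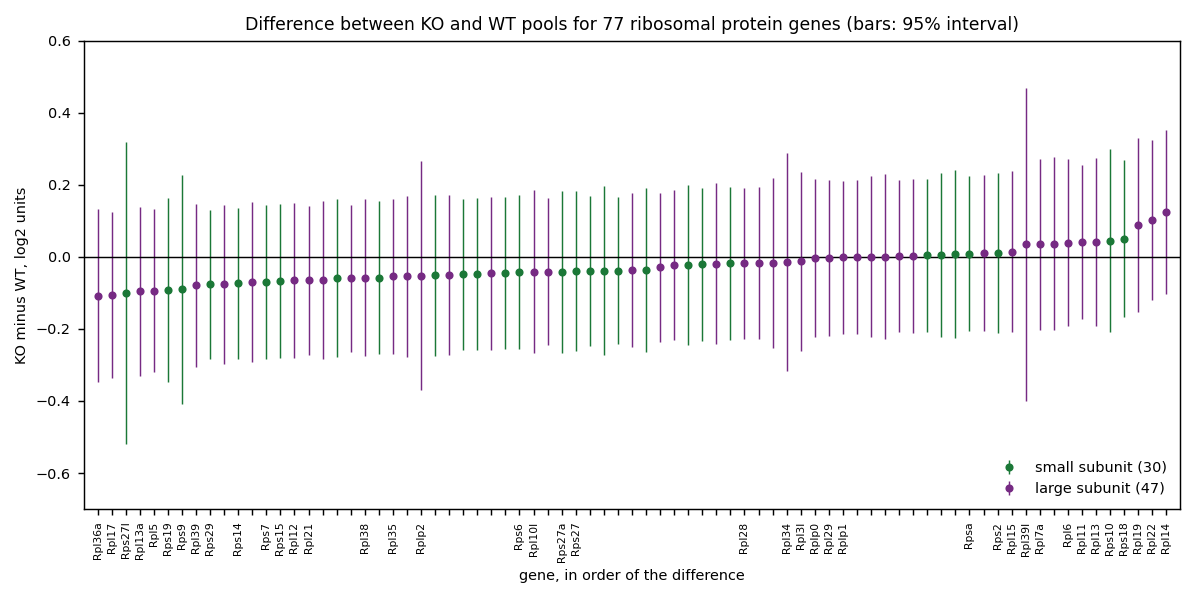
The vertical axis gives the difference KO minus WT in log2 units for 77 of the ribosomal protein genes, ordered from the lowest to the highest, with the 95% interval of the limma fit as a bar and the subunit as colour. Genes named in the text are labelled. Every interval drawn crosses 0, and the points run from -0.11 for Rpl36a to 0.12 for Rpl14.

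The small differences leaned to one side, and their side of 0 depended on the scaling. The median of the members lay below that of all genes or probe sets tested in every setting run, a gap that was not tested. As deposited, 23 of the 80 genes were higher and 57 lower in KO, where 51.3% of all genes were lower. The median difference was -0.037, against -0.0043 over all genes tested. Among genes read above the median level of all probe sets, 5.63, the medians were -0.038 for 77 members and 0.026 over all genes. With each array centred on its median, 50 were higher and 30 lower, where 38% of all genes were lower, with a median of 0.010 against 0.043 over all genes, and a further quantile normalization gave 35 higher and 45 lower, where 47.8% of all genes were lower, with a median of -0.010 against 0.0073. Leaving out KO pool 4 gave a median of -0.015, leaving out WT pool 1 gave -0.018 and leaving out WT pool 4 gave -0.059. The number of members with a higher mean in KO was 9 of 80 without KO pool 1 and 13 of 80 without WT pool 4. By subunit, 8 small subunit genes were higher and 24 lower as deposited, with a median of -0.040, while 15 large subunit genes were higher and 33 lower, with a median of -0.018. Both medians were above 0 with centred arrays, at 0.0075 and 0.029.

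**Figure D2:**
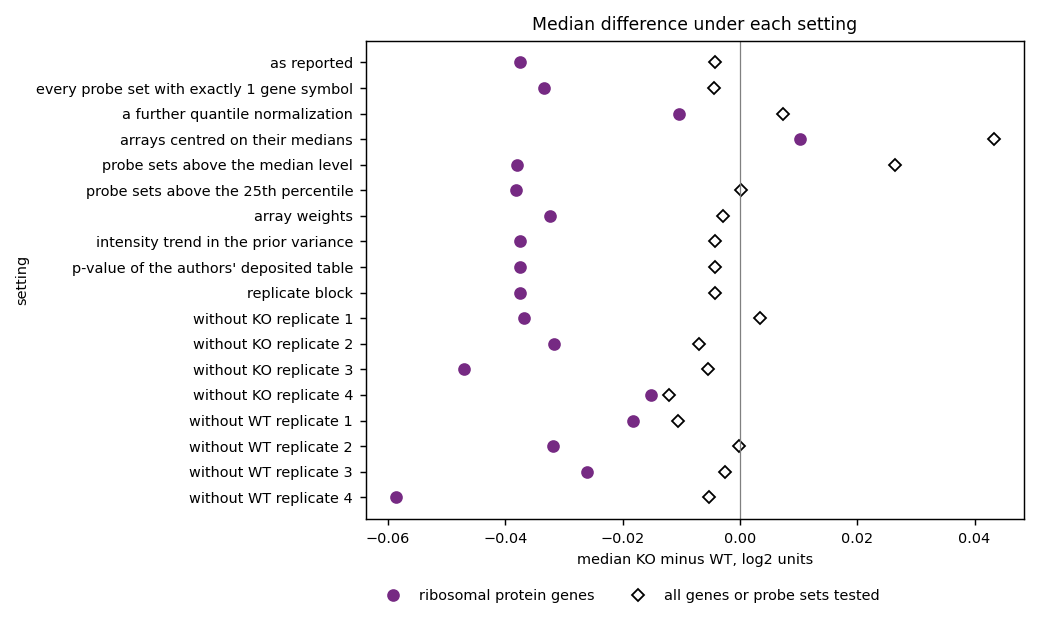
The horizontal axis gives the median difference KO minus WT in log2 units, for the ribosomal protein genes (filled) and for all genes or probe sets tested (open), in 1 row for each setting. The filled points lie between -0.059 and 0.010, and the row of arrays centred on their medians is the one in which the filled point lies above 0. In every row the filled point lies to the left of the open one.

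Among small subunit genes with lower means in KO, Rps29 was the single member of the 80 whose groups did not overlap, where 2.58% of all genes had no overlap (1.09% with KO above WT and 1.5% with KO below it). Rps29 contacts ribosomal RNA in the head of the small subunit. It stood at 12.99, 13.05, 13.09 and 13.03 in KO pools 1 to 4, against 13.15, 13.11, 13.10 and 13.10 in WT pools 1 to 4. The highest KO pool and the lowest WT pools were thus almost level. The difference of -0.076 (SE 0.094) gave an exact 2-sided permutation p of 0.0286, the smallest that 70 assignments of the pools allow, and a limma adjusted p of 0.977. It turned to 0.022 under a further quantile normalization.

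Rps7, Rps14 and Rps15, proteins of the small subunit with lower means in KO, differed by -0.069, -0.074 and -0.067, with overlapping groups.

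Rps19, the gene most often mutated in Diamond-Blackfan anaemia, stood at 11.10, 11.21, 11.24 and 11.11 in KO pools 1 to 4, against 11.39, 11.33, 11.31 and 10.98 in WT pools 1 to 4. WT pool 4 was below all KO pools and the other WT pools were above them. The difference of -0.092 (SE 0.12, exact permutation p = 0.429) was -0.18 without WT pool 4 and -0.045 without WT pool 1. The 4 probe sets of Rps19 ran from this value to 0.0019, the latter at a mean level of 11.05.

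Rps6, the protein that S6 kinase phosphorylates downstream of mTORC1, stood at 12.23, 12.31, 12.35 and 12.17 in KO pools 1 to 4, against 12.34, 12.33, 12.30 and 12.26 in WT pools 1 to 4. KO pool 3 was the highest of all and KO pool 4 the lowest. Rps27a, which is made as a fusion with ubiquitin, differed by -0.041 (SE 0.10). Rpsa, known also as a laminin receptor, averaged 12.38 ± 0.063 in KO and 12.37 ± 0.071 in WT (SD, n = 4). Of the 8 small subunit genes with a higher mean in KO, Rps18 had the largest difference, 0.050 (SE 0.099), and Rps10 and Rps2 differed by 0.045 and 0.011.

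Among large subunit genes, Rpl14 had the largest positive difference. It stood at 9.92, 9.92, 9.87 and 10.14 in KO pools 1 to 4, against 9.88, 9.77, 9.91 and 9.80 in WT pools 1 to 4. KO pool 4 stood above the other pools, and the remaining KO and WT pools interleaved. The difference of 0.12 (SE 0.10, exact permutation p = 0.0857) was 0.066 without KO pool 4. Rpl22, whose loss in mice is known to affect lymphocyte development, averaged 9.51 ± 0.089 in KO and 9.41 ± 0.076 in WT (SD, n = 4). Its difference was 0.10 (SE 0.10), or 0.059 without KO pool 1. Rpl19 differed by 0.089 (SE 0.11), or 0.039 without KO pool 1, and Rpl13 and Rpl6 by 0.042 and 0.040.

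On the other side, Rpl36a stood at 12.05, 12.05, 12.10 and 11.86 in KO pools 1 to 4, against 12.22, 12.22, 12.08 and 11.96 in WT pools 1 to 4. WT pools 1 and 2 lay above all KO pools, and WT pools 3 and 4 did not. The difference was -0.11 (SE 0.11, exact permutation p = 0.229), or -0.057 without KO pool 4. Rpl17, which lies near the exit of the peptide tunnel, differed by -0.10 (SE 0.11), or -0.047 without KO pool 4. Rpl13a, which is also known as a silencer of translation in inflammation, differed by -0.096 (SE 0.11), and Rpl39 by -0.078 (SE 0.10).

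The P stalk recruits the elongation factors to the ribosome, with Rplp0 as its base and Rplp1 and Rplp2 as its arms. Rplp0, a common reference gene in quantitative PCR, averaged 12.26 ± 0.050 in KO and 12.26 ± 0.097 in WT (SD, n = 4). The difference was -0.0041 (SE 0.10). Dimmer probe sets of Rplp0, at mean levels of 11.60, 11.54 and 11.30, differed by -0.053, -0.057 and -0.050. Rplp1 differed by -0.00096 (SE 0.097), and by 0.087 under a further quantile normalization. Rplp2 was read by a dimmer probe set, at 8.23, 7.95, 8.11 and 8.07 in KO pools 1 to 4, against 7.96, 7.90, 8.53 and 8.18 in WT pools 1 to 4. WT pool 3 was the highest and WT pool 2 the lowest, so the KO pools lay inside the WT range, with a difference of -0.052 (SE 0.15).

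Rpl5 and Rpl11 carry the smallest ribosomal RNA into the large subunit and, when free, bind the p53 regulator MDM2. Rpl5 stood at 11.62, 11.58, 11.72 and 11.46 in KO pools 1 to 4, against 11.76, 11.71, 11.71 and 11.59 in WT pools 1 to 4. The ranges overlapped, with KO pool 4 lowest and WT pool 1 highest. Its difference was -0.093 (SE 0.10), or -0.049 without KO pool 4. Rpl11 differed in the other direction by 0.042 (SE 0.097), with 12.54 ± 0.069 in KO and 12.50 ± 0.053 in WT (SD, n = 4). Of the 13 genes listed as p53 and its targets, 8 were higher and 5 lower, with a median of 0.079, and 0 were called. Mdm2 itself differed by -0.29 (SE 0.16), while Ccng1 differed by 0.46 (SE 0.17) and Sesn2 by 0.16 (SE 0.12). Of the 23 members listed for Diamond-Blackfan anaemia, 5 were higher and 18 lower, with a median of -0.039 as deposited, 0.0085 with centred arrays and -0.011 under a further quantile normalization.

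The 4 duplicated members are copies of other members and mostly serve special tissues. Rpl3l is known from heart and skeletal muscle, and Rpl10l and Rpl39l from testis. The probe sets of Rpl3l, Rpl10l and Rpl39l were dim. Rpl3l averaged 4.24 ± 0.17 in KO, against 4.25 ± 0.070 in WT (SD, n = 4). For Rpl10l the KO mean was 4.28 ± 0.067, against 4.32 ± 0.11 in WT. For Rpl39l the KO mean was 3.90 ± 0.45, against 3.87 ± 0.17 in WT. The 3 genes lay under the median of all probe sets, 5.63, and Rpl3l and Rpl39l under the lower quartile, 4.28. Rps27l, which is a target of p53, was read at 10.13, 10.70, 10.93 and 10.48 in KO pools 1 to 4, against 10.65, 10.39, 11.10 and 10.50 in WT pools 1 to 4. It varied more than most members, with an SD of 0.34 in KO and 0.31 in WT, and its groups overlapped. The difference of -0.099 (SE 0.19) turned to 0.044 when KO pool 1 was left out and to 0.048 when WT pool 3 was.

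Pools of 1 group differed by more than the group means did. The mean deviation of the 80 genes from their own means was 0.013, -0.035, 0.025 and -0.057 in KO pools 1 to 4, against 0.071, 0.001, 0.043 and -0.061 in WT pools 1 to 4. WT pool 1 was highest and WT pool 4 lowest, so that the KO pools lay inside the WT range. In WT pool 1, 75 of the 80 genes were above their own mean and 39 had their highest value of all pools. In KO pool 4 and WT pool 4, 13 and 11 genes were above their mean, and 26 and 22 had their lowest value there. The 4 KO means had an SD of 0.0386 and the 4 WT means one of 0.0576. Both were larger in size than the difference between the group means of -0.027. These SDs leave out the pool number, which may be shared structure. Pool 4 was lowest in both groups, with KO slightly above WT, and at every other number the WT pool lay above the KO pool. The spread of the differences between same-numbered pools was not tested, so these SDs do not give the precision of a paired comparison. Both subunits had their ends in the same pools, with 0.090 and 0.058 for small and large in WT pool 1, and -0.072 and -0.054 in WT pool 4.

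**Figure D3:**
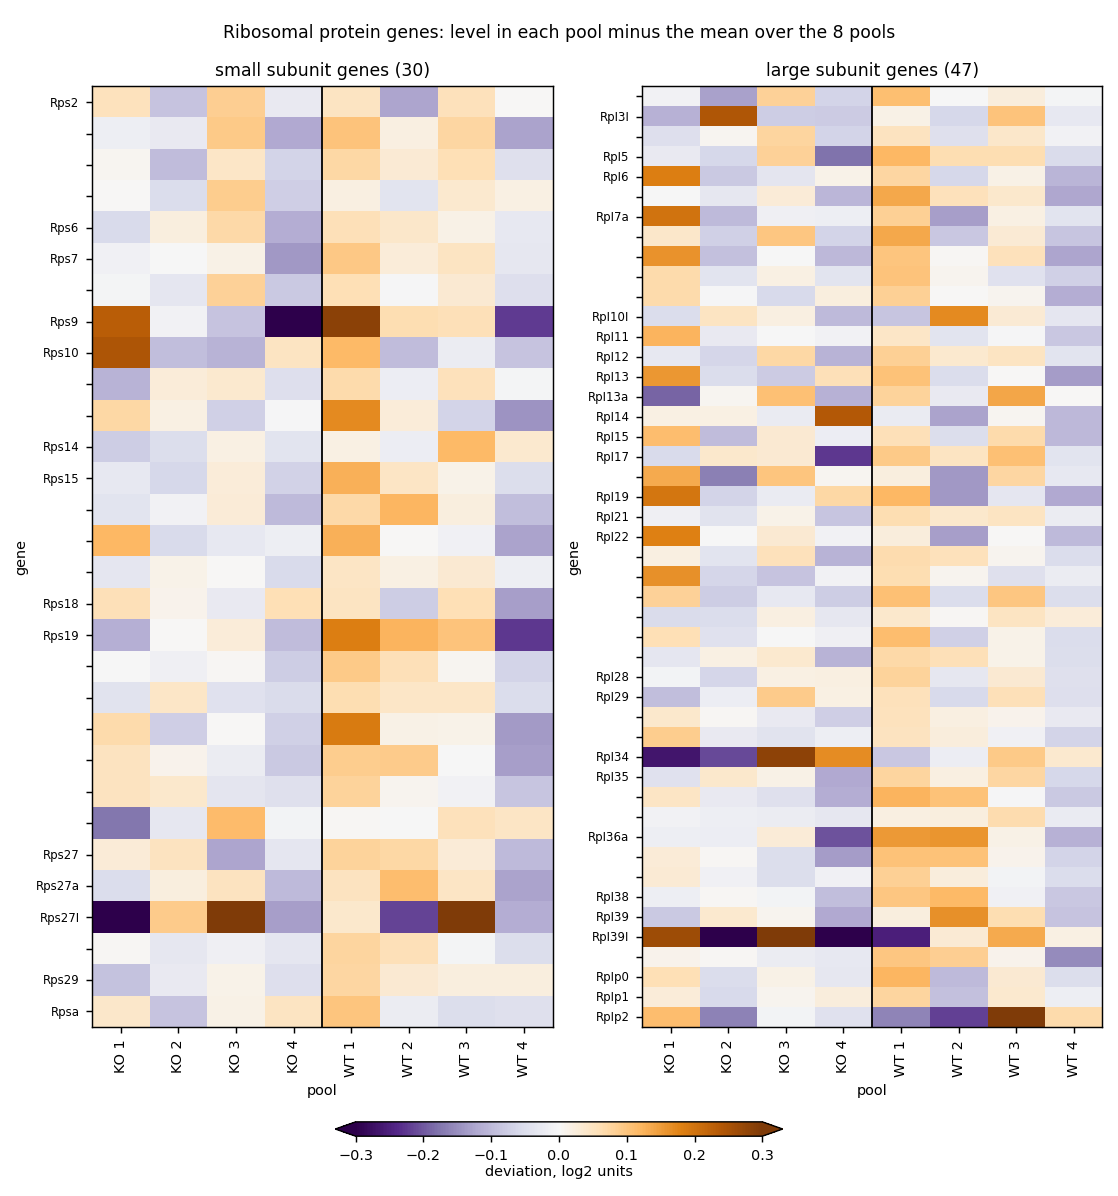
Each row is 1 of 77 ribosomal protein genes, labelled where the text names it, and each column a pool, KO left of the line and WT right of it, and the colour gives the level minus the gene's mean over the 8 pools in log2 units (stronger values than 0.3 share the end colours). The column of WT pool 1 is mostly above 0 and the columns of KO pool 4 and WT pool 4 mostly below, and Rps9, Rps27l, Rpl34, Rpl39l and Rplp2 stand out with wide deviations.

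Most members were read by several probe sets. There were 18 genes with 1 probe set and 62 with more, up to 37 for Rpl21, 27 for Rpl29, 17 for Rps2 and 15 for Rpl7a. Ribosomal protein genes are known for many processed pseudogenes, copies of the transcript put back into the genome, and the gene table holds 305 pseudogenes named after 61 of the members. Probe sets that carry a member's symbol may therefore read the gene, a copy or both. In 7 genes, 19 probe sets had values identical to those of another, so the probe sets of a gene are not separate measurements. In the fit over all probe sets, 115 of the 397 were higher and 282 lower, where 51.4% of all probe sets were lower. Here 0 of the 397 passed an adjusted p of 0.05, as did 0% of the 23586 probe sets, and the lowest adjusted p of a member was 0.972. In 40 genes every probe set was lower, in 9 every one was higher, and in 13 the signs were mixed.

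Probe sets of a gene mostly carried the same small difference, with a median gap of 0.0303 between the highest and the lowest. All 37 probe sets of Rpl21 lay between -0.10 and -0.049, and all 14 of Rpl17 between -0.16 and -0.091. The gaps were wide where a dim probe set was present. The 9 of Rpl13 ran from 0.042 to 0.40, the last from a probe set at 5.43 that read 5.14 to 6.57 in KO pools, against 3.32 to 6.34 in WT pools. The 7 of Rpl12 ran from -0.37, at a probe set with a mean of 6.62, to -0.046. In 41 of the 62 genes the dimmest probe set differed more from 0 than the brightest, and in 37 of these the sign was the same. For Rpl5 the brightest differed by -0.093 and the dimmest by -0.26, and for Rpsa the values were 0.0085 and 0.24.

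**Figure D4:**
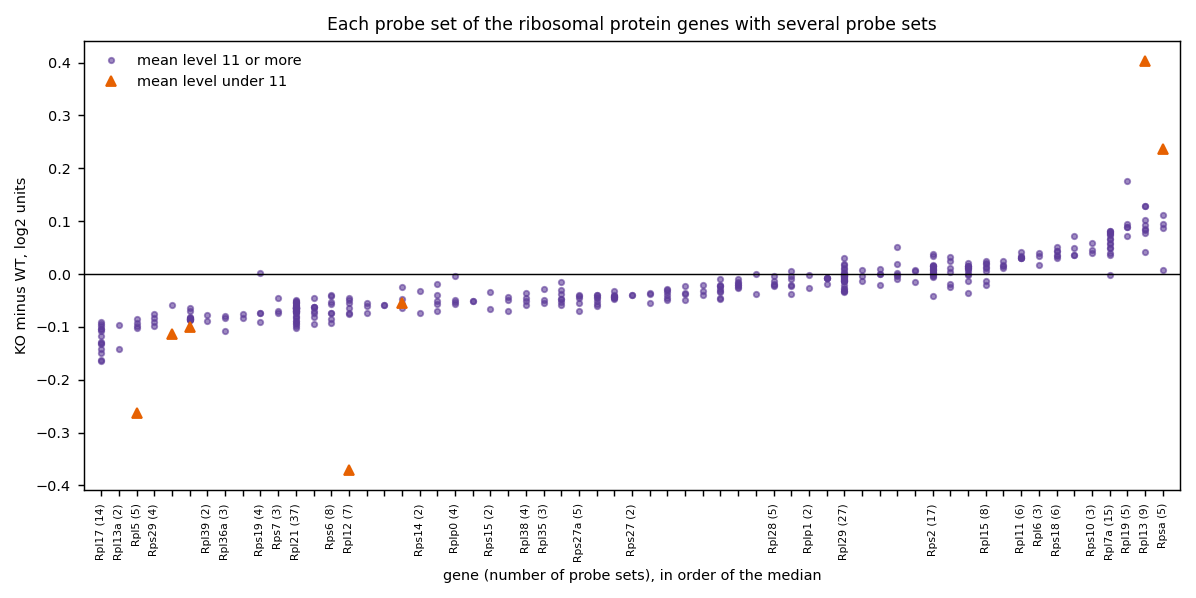
Each column is 1 of 61 ribosomal protein genes with several probe sets (labelled, with their number in brackets, where the text names the gene), and each point gives the difference KO minus WT of a probe set in log2 units, with triangles for a mean level under 11. Most columns are tight, and the widest belong to Rpl13, Rpl12 and Rpsa, each with a triangle at its far end.

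Other parts of the translation machinery were read from fixed lists in the same fit, in which 0 genes were called. Ribosomal components that the rule misses, which include Fau, made as a fusion with a relative of ubiquitin, and Gnb2l1, now called Rack1, were 2 higher and 4 lower, with a median of -0.029. Of these, Fau differed by -0.047 (SE 0.099) and Rpl22l1, a copy of Rpl22, by -0.055 (SE 0.12). Of 12 elongation factors and other TOP transcripts, 6 were higher and 6 lower, with a median of 0.031, or -0.019 without WT pool 2 and -0.036 over every probe set. The poly(A)-binding protein gene Pabpc1 and Naca, a partner of nascent chains, differed by 0.10 each (SE 0.11 and 0.12).

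Lists of other proteins that build or start the ribosome had more genes with higher than with lower means in KO. Over all genes read above a level of 5.63, the median difference was 0.026. Of 75 mitochondrial ribosomal protein genes, which serve the separate ribosome of the mitochondrion, 58 were higher and 17 lower, with a median of 0.080. Mrps18b was at 8.57, 8.42, 8.40 and 8.56 in KO pools 1 to 4, against 8.21, 8.29, 8.19 and 8.06 in WT pools 1 to 4. The difference was 0.30 (SE 0.10, limma adjusted p = 0.967). Mrps18b was the 1 gene of the 75 whose groups did not overlap, where 2.58% of all genes had no overlap (1.09% with KO above WT). An unadjusted limma p under 0.05, in either direction, was found for 10 of the 75, against 4.55% of all genes. Mrpl15 and Mrps25 differed by 0.46 each. Of 49 ribosome assembly factors, 39 were higher and 10 lower, with a median of 0.11. Mphosph10 and Bysl, both needed to mature the small subunit, differed by 0.39 (SE 0.15) and 0.49 (SE 0.20). The value of Bysl leaned on WT pool 2, at 5.74, where the other WT pools were at 6.61 to 6.72. Of 36 initiation factors, 26 were higher and 10 lower, with a median of 0.12, among them Eif2s2 with 0.32 (SE 0.13) and Eif3a with 0.24 (SE 0.11).

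No gene of these lists passed over all genes, and both the scaling and single pools moved their medians. Under a further quantile normalization, 29 of the 75 mitochondrial genes were lower, with a median of 0.053, and 16 of the 49 assembly factors, with a median of 0.054. With centred arrays 11 and 4 of these were lower, with medians of 0.13 and 0.16. For the initiation factors the medians were 0.095 and 0.17 under these scalings, with 11 and 5 of 36 lower. Leaving out KO pool 1 or KO pool 2 gave a mitochondrial median of 0.13. It was 0.019 when WT pool 2 was left out and 0.17 when WT pool 3 was. That of the assembly factors was 0.18 without KO pool 2, 0.010 without KO pool 3 and 0.041 without WT pool 2, and that of the initiation factors 0.071 without KO pool 3. The difference between these lists and the ribosomal protein genes was not tested. Of 15 genes of RNA polymerase I and its factors, which make ribosomal RNA, 10 were higher and 5 lower, with a median of 0.077. This median was 0.018 under a further quantile normalization and -0.0041 over every probe set, of which 13 of 25 were lower. Taf1a differed by -0.82 (SE 0.26), Cd3eap by 0.44 (SE 0.19) and Polr1e by 0.24 (SE 0.11). Of 19 mTORC1 and TOP regulators, 9 were higher and 10 lower, with a median of -0.046, which was 0.0020 with centred arrays. Of 11 genes of the MYC family, a transcription factor family that drives ribosome production, 8 were higher, or 6 under a further quantile normalization, and Myc differed by 0.41 (SE 0.17).

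**Figure D5:**
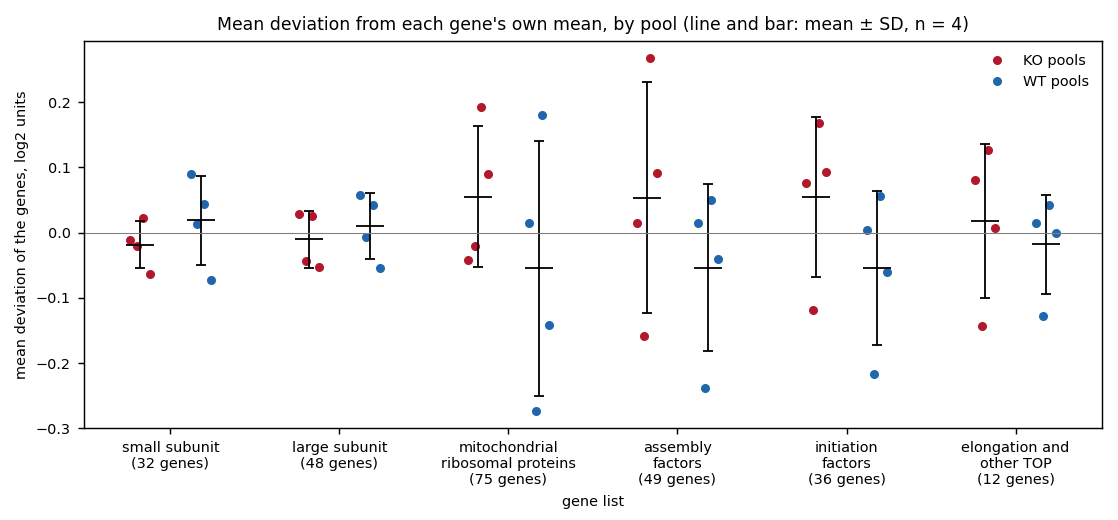
The vertical axis gives the mean deviation of a list's genes from their own means over the 8 pools, in log2 units, with a point for each pool (KO left, WT right) and the mean ± SD of the 4 pools in black. The points of both ribosomal subunits stay between -0.072 and 0.090, while those of the mitochondrial, assembly and initiation lists spread from -0.27 to 0.27.

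Markers of dividing cells and of other marrow cells were read beside these lists. Of 12 proliferation genes 12 were higher, with mean deviations of -0.027 to 0.43 in KO pools, against -0.47 to 0.19 in WT pools. Among the granulocyte and monocyte markers 10 of 12 had higher means in KO, with -0.39 to 0.77 in KO pools, against -0.88 to 0.55 in WT pools. Among those of megakaryocytes and platelets 8 of 8 had, with -0.050 to 0.42 in KO pools, against -0.50 to 0.26 in WT pools. For 10 erythroid genes 8 were higher, for 9 B cell genes 3 and for 10 T and NK cell genes 5. None of these markers was called, no file lists a level at 0, and their part in the differences of the translation lists was not tested. Of the 10 genes of the gate and of HSC identity, 4 were higher and 6 lower, and Hlf, a transcription factor of HSCs, averaged 10.04 ± 0.31 in KO and 10.21 ± 0.24 in WT (SD, n = 4). Slamf1, which encodes the gate marker CD150, differed by 0.27 (SE 0.18), and Tek, a receptor of HSCs, by 0.44 (SE 0.26).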

How the data were processed

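Biotin-labelled cDNA, amplified from small amounts of RNA, was hybridised to 1 Affymetrix array for each of 8 pools, per the labels' protocols. The authors deposited log2 levels made with RMA in Affymetrix Expression Console 1.3, per the submitters' processing notes. RMA scales the arrays to each other, so a shift shared by most genes could be reduced, but the deposited arrays still differed, with medians from 5.58 to 5.69 and upper quartiles from 7.10 to 7.26. The number of arrays limits the precision. The deposited table also holds the authors' log2 ratio, a signed fold change, which is a score below 0 where KO is lower, and an unadjusted p-value. The genome build of the probe sets: not given in the sources used here. Symbols were read from the authors' table, and 79 of the 80 members carry a current symbol in the RefSeq table of GRCm38.p6 and 1 an older one. The probe set with the highest mean was kept per gene. KO was set against WT by limma 3.58.1 under R 4.3.3 (functions lmFit and eBayes, without covariates, prior of 5.40 degrees of freedom), with Benjamini-Hochberg adjustment over 21104 genes and a threshold of 0.05. Exact tests are 2-sided, over 70 assignments of pools. The fit was run on simulated data as a check of the code. That simulation had independent noise for each gene and no shift shared within a pool, so it does not give the power in these pools. SE is the moderated standard error, and its median over the members was 0.101, against 0.0561 from the members' own spread. List medians carry no test. The members and lists were chosen with earlier results of these data known. Named members are those with the smallest p by subunit and direction (up to 6), fixed roles and lists, widest gaps between probe sets, extreme levels and spreads, and up to 3 genes per other list. Rps9 and Rpl34 in the plot of deviations, Gnb2l1, Rps27, Rpl15, Rpl28, Rpl35, Rpl38, Rpl21, Rpl29 and Rpl7a were chosen after the data were examined. No source used here says whether pools were litters or batches, so p-values measure the spread between pools. Results of 3 members are not reported here by name, and counts and medians include them.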

Additional observations from a re-analysis of the deposited data

Results flagged for a closer look

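In groups of 4 pools, a pool was marked when its gap to the nearest other pool exceeded 0.829 of the group's range, which chance alone brings about in about 1 of 20 groups. Of 196 groups of pools examined, 5 were marked. Rpl14 was at 10.14 in KO pool 4, above the other KO pools, and its difference was 0.066 without that pool. The dim Rpl3l was at 4.484 in KO pool 2. Among other genes, Naca was at 11.94 in KO pool 1, Bysl at 5.737 in WT pool 2 and the platelet integrin gene Itgb3 at 7.441 in KO pool 1, below the other KO pools. No cause was tested for any of them.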

How the results depend on the processing

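In 17 alternatives, 0 ribosomal protein genes were called. Over all genes the count was 0 higher and 0 lower in each, except that the replicate block gave 1 higher and 1 lower, with 0 ribosomal protein genes called and the median unchanged at -0.037. The numbers of the pools are not explained by the labels. Same-numbered pools correlated in their deviations with r of 0.287, 0.213, 0.305 and 0.0623, so not every pair passed 0.1, although each pool correlated best with its own number. With arrays centred on their medians, the median of the large subunit was 0.029 and that of the small subunit 0.0075. Both signs were opposite to those as deposited. Centring takes 1 constant from each array, so it moved the difference of every gene by the same amount. The median over all genes moved from -0.0043 to 0.043. Leaving out each pool moved the median of all 80 between -0.059 and -0.015, that of the small subunit between -0.072 and -0.020 and that of the large subunit between -0.040 and -0.011. Of 32 named ribosomal protein genes, 17 changed sign under at least 1 alternative, in 44 of 539 comparisons, with 0 past the threshold. The authors' deposited p-values, not adjusted, were under 0.05 for 3 of the 80 genes, against 4.33% of all genes, and for 0 with an intensity trend in limma's prior, against 4.56%. The number of arrays limits all of these values, and the dim Rpl3l, Rpl10l and Rpl39l give no firm level.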
